A study of Mus musculus with 17 samples.

Results

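The granin genes Chga, Chgb, Scg2, Scg3 and Vgf were followed across RNA-seq libraries of 17 mouse tumours. They are 5 of the 23284 gene symbols in the count tables and were taken by symbol. All 5 passed the low-count filter in every fit. The tumours are given in the labels as neuroendocrine tumours of the pituitary. The genotype is Rb1/Trp53/Crebbp in 8 tumours and Rb1/Trp53 in 9, so engineered Rb1 and Trp53 alleles were shared by all, and Crebbp was the added allele. The labels name the genes only, and the series title speaks of Crebbp loss. How recombination was driven, the age and sex of the mice and any treatment were not stated in the labels used here. Separate animals are not stated either, so p-values cover the spread between samples, part of which may be technical. The stated aim was to find genes that Crebbp regulates.

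Granins are acidic proteins stored with peptide hormones in the dense-core granules of endocrine and neuronal cells. They aggregate in the trans-Golgi network, help to gather hormones into granules, and are cut into peptides that are released with them. Several granin genes are known targets of the cAMP pathway: the factor CREB binds a cAMP response element in their promoters and recruits the coactivator CBP, which Crebbp encodes. In pituitary and C cells, granins are used as markers of the neuroendocrine state.

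The promoter stretches below are shown because the coactivator under study acts through this element. They run from 80 to 21 bases before the RefSeq gene start (build GRCm38.p6, read along the gene's strand), for the 4 of 5 genes matched in the RefSeq promoter table. They lie at chr12:102554861-102554920 (+ strand, Chga), chr2:132781562-132781621 (+ strand, Chgb), chr1:79440047-79440106 (- strand, Scg2) and chr9:75684077-75684136 (- strand, Scg3). Capitals mark the element TGACGTCA or its variant TGACGTAA, or the half-site TGACG where neither of the others was found.
Chga: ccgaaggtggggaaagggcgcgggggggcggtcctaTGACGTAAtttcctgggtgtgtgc
Chgb: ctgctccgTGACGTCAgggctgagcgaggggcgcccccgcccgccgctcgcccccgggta
Scg2: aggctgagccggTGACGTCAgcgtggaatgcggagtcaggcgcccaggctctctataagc
Scg3: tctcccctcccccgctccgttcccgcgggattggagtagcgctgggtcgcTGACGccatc
The palindrome TGACGTCA stood at bases -72 to -65 of Chgb and -68 to -61 of Scg2, and TGACGTAA at -44 to -37 of Chga. Scg3 held only the half-site, at -30 to -26. Both strands of the whole RefSeq window, 250 bases before to 50 after the start, were searched. Among 32851 such windows, 1.79% held TGACGTCA, 0.499% held TGACGTAA and 20.8% held TGACG, which is also part of both longer motifs. A match describes these letters and does not show that a factor binds there.

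The libraries form 2 sets by their dominant hormone gene, and the genotypes were compared within each set. The 10 Pomc-high libraries (4 Rb1/Trp53/Crebbp and 6 Rb1/Trp53) had a Pomc count above their Calca count, and the 7 Calca-high libraries (4 and 3) did not. This split comes from the counts, not from the labels. CPM below is a read count relative to its library's total, with TMM scaling between libraries. Tbx19, a T-box factor that drives Pomc, ranged from 305 to 418 CPM in the Pomc-high libraries, and Pax7, a factor of the intermediate lobe, from 125 to 299 CPM. Both were at 0.318 CPM or below in Calca-high libraries, and the 7 hormone and lineage genes of other anterior lobe cells were each under 1 CPM there, so those libraries lacked these defining genes of their labelled tissue. Among the other Pomc-cell markers, Pitx1 was at 1.06 to 44.8 CPM in Calca-high libraries, while Pcsk2, which C cells also express, was at 1738 to 7763 CPM there. At most 14.5 CPM of Nkx2-1 and 8.54 CPM of Ret, both genes of C cells, were seen in Pomc-high libraries, against 189 to 333 CPM of Nkx2-1 and 126 to 429 CPM of Ret in Calca-high ones. Crebbp had 42.8 to 93.6 CPM in Rb1/Trp53/Crebbp and 39.7 to 116 CPM in Rb1/Trp53 libraries. Its log2 fold change was -0.47 ± 0.23 SE in Pomc-high (edgeR adjusted p = 0.239) and 0.60 ± 0.12 SE in Calca-high libraries (adjusted p = 0.00723). Trp53 was lower in Calca-high Rb1/Trp53/Crebbp libraries (-0.84 ± 0.19 SE, edgeR adjusted p = 0.0116) and did not pass in Pomc-high ones (-0.28 ± 0.18 SE, adjusted p = 0.351). Rb1 did not pass in Pomc-high (0.20 ± 0.12 SE, edgeR adjusted p = 0.332) or Calca-high libraries (0.29 ± 0.13 SE, adjusted p = 0.112). A whole-gene count does not test an exon deletion and so does not check the labels. Gene counts summed to between 8328297 and 28140755 in a library (median 13456360), and the lowest granin count in any library was 210.

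Chga, which encodes chromogranin A, the most widely used blood and tissue marker of neuroendocrine tumours, was the most abundant granin per length in the Pomc-high libraries. Levels of different genes are given as CPM per kb of exon (GENCODE vM21 lengths, 1.88 kb for Chga). The median was 3189 CPM per kb for Chga in the Pomc-high libraries, where it ranked 3 of 12981 genes. Scg2 followed with 1077 (rank 13), then Chgb with 563 (rank 52), Scg3 with 138 (rank 268) and Vgf with 105 (rank 360). In the Calca-high libraries Scg2 stood at 3452 CPM per kb (rank 2), Chga at 3113 (rank 3), Chgb at 715 (rank 25), Scg3 at 222 (rank 165) and Vgf at 11.1 (rank 5109). Across the 7 Calca-high libraries the ranges of Scg2 and Chga overlapped, at 1804 to 5394 and 1672 to 5906 CPM per kb, and Scg2 was ahead in 4 of 7. Scg3 and Vgf also overlapped in the Pomc-high libraries, at 109 to 153 and 51.2 to 155 CPM per kb, and Vgf was ahead in 3 of 10. The order Chga, Scg2, Chgb and then the other two held in all 10 Pomc-high libraries. Together the 5 genes took 0.777% to 1.02% of gene counts in Pomc-high Rb1/Trp53/Crebbp and 1.03% to 1.27% in Pomc-high Rb1/Trp53 libraries. In the Calca-high libraries they took 1.10% to 1.87% in Rb1/Trp53/Crebbp and 2.17% to 2.68% in Rb1/Trp53 tumours.

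**Figure D1:**
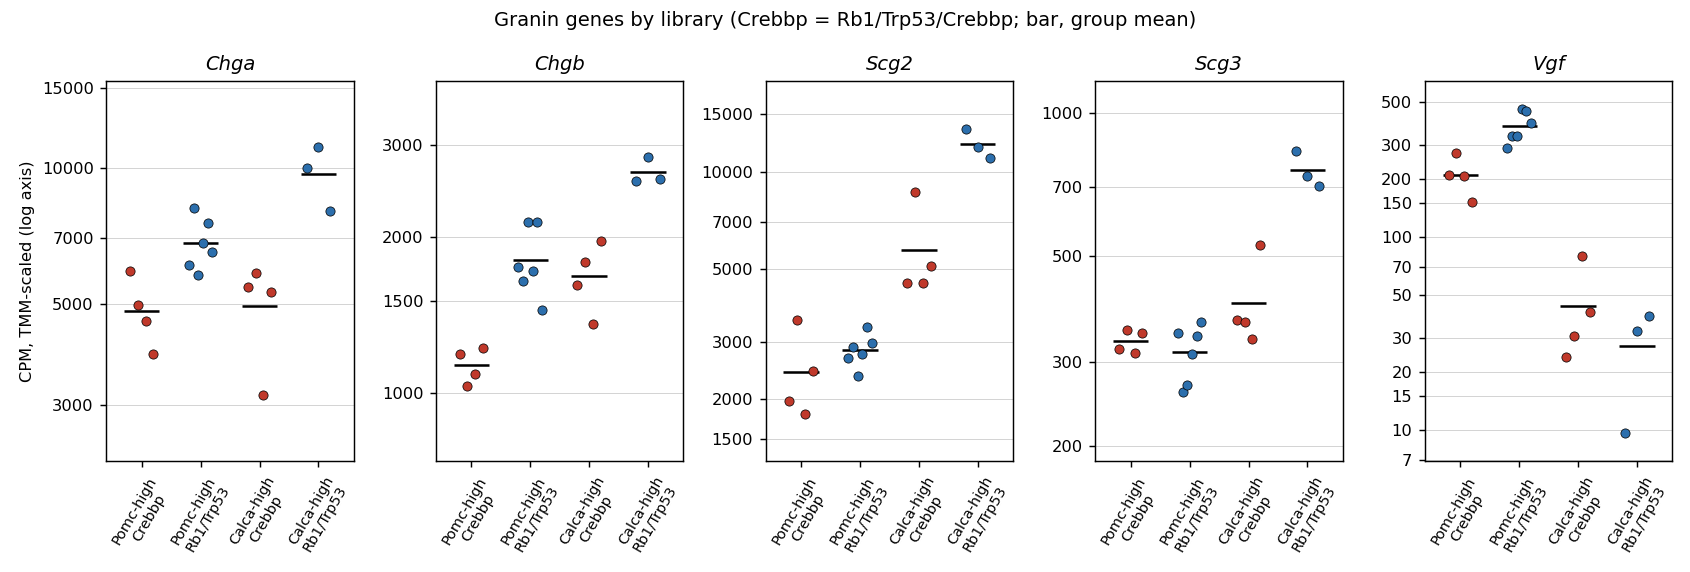
CPM of each granin gene (log axis) in every library, by set and genotype, with Rb1/Trp53/Crebbp in red, Rb1/Trp53 in blue and a bar at each group mean. Chgb is lower in the red group of both sets without overlap, Scg3 only separates the genotypes in the Calca-high set, and Vgf lies at 151 CPM or above in Pomc-high and at 79.4 CPM or below in Calca-high libraries.

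Between the sets the granins did not move as a block. Vgf was higher in the Pomc-high libraries, and Scg2 was lower, each without overlap. Since the sets were split on counts of the same libraries, these differences are given as a description, with no test. Vgf encodes a granin-like precursor of neuropeptides that was found as a gene induced by nerve growth factor. It had 151 to 456 CPM in Pomc-high and 9.67 to 79.4 CPM in Calca-high libraries, a log2 difference (Pomc-high over Calca-high, genotype as a term) of 2.98, or 7.91-fold. Scg2, secretogranin II, the precursor of secretoneurin, had 1796 to 3489 CPM in Pomc-high and 4538 to 13565 CPM in Calca-high libraries (log2 difference -1.68). The ranges of the other 3 genes overlapped between the sets. Chgb had a log2 difference of -0.57, Scg3 of -0.78 and Chga of -0.27. Of 14338 genes tested, 22.3% had sets that did not overlap, 11.2% with the Pomc-high libraries higher and 11.0% with them lower. In bulk tumours, fewer cells of a type and less RNA per cell cannot be told apart.

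The gap between the sets was also read within each genotype. Vgf was 4.84-fold higher in Pomc-high than in Calca-high libraries among Rb1/Trp53/Crebbp tumours and 13.8-fold higher among Rb1/Trp53 tumours. Scg2 was 2.33-fold lower among Rb1/Trp53/Crebbp and 4.29-fold lower among Rb1/Trp53 tumours. Scg3 had a log2 difference of -0.24 with overlap among Rb1/Trp53/Crebbp tumours and of -1.26 without overlap among Rb1/Trp53 tumours. Chga had almost the same level in both sets of Rb1/Trp53/Crebbp tumours (-0.01) and -0.50 among Rb1/Trp53 tumours. For Chgb the gap was nearly the same in both genotypes, at -0.55 and -0.56, and the sets did not overlap in either. Separation of this kind was frequent with these group sizes. Among Rb1/Trp53/Crebbp tumours 48.2% of 14338 genes had sets that did not overlap (23.8% higher and 24.4% lower in Pomc-high libraries), and among Rb1/Trp53 tumours 48.6% (24.5% higher and 24.2% lower).

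Within the Pomc-high libraries, Chgb and Vgf fell in the Rb1/Trp53/Crebbp tumours, and Chga, Scg2 and Scg3 did not pass the threshold. A gene counts as changed at an adjusted p under 0.05 by edgeR's quasi-likelihood test with Benjamini-Hochberg adjustment over all genes, and each log2 fold change sets Rb1/Trp53/Crebbp over Rb1/Trp53. Of 14010 genes tested here, 8.42% were called, 3.15% as higher and 5.26% as lower. The median log2 fold change was -0.48 over the 5 granins and 0.01 over all genes.

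Chgb encodes chromogranin B, the partner of chromogranin A in granule formation. It had 1188, 1031, 1084 and 1217 CPM in Rb1/Trp53/Crebbp T5 to T8, against 1442 to 2136 CPM with a median of 1731 in the 6 Rb1/Trp53 libraries. All 4 Rb1/Trp53/Crebbp libraries lay below the 6 Rb1/Trp53 libraries. In this set 9.77% of genes had genotypes that did not overlap, 3.90% with Rb1/Trp53/Crebbp higher and 5.87% with it lower. Chgb was 36.4% lower (log2 fold change -0.65 ± 0.13 SE, edgeR adjusted p = 0.00839).

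Vgf had 209, 273, 206 and 151 CPM in Rb1/Trp53/Crebbp T5 to T8, against 286 to 456 CPM with a median of 361 in Rb1/Trp53 libraries. These groups did not overlap either, although T6 at 273 CPM came close to the lowest Rb1/Trp53 library. The log2 fold change was -0.81 ± 0.17 SE (edgeR adjusted p = 0.0131), the largest fall among the 5 granins in this set.

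Chga had 5911, 4981, 4604 and 3892 CPM in Rb1/Trp53/Crebbp T5 to T8, against 5802 to 8165 CPM with a median of 6683 in Rb1/Trp53 libraries. Only T5 reached into the Rb1/Trp53 range. The log2 fold change of -0.48 ± 0.15 SE missed the threshold (edgeR adjusted p = 0.0640). It was -0.58 (edgeR adjusted p = 0.0464) when that library, T5, was left out, and -0.37 (adjusted p = 0.148) without T8. DESeq2 called it at -0.47 (adjusted p = 0.00578).

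Scg2 had 1974, 3489, 1796 and 2435 CPM in Rb1/Trp53/Crebbp T5 to T8, against 2357 to 3322 CPM with a median of 2816 in Rb1/Trp53 libraries. T6 was the highest and T7 the lowest of all 10 Pomc-high libraries, so the 4 tumours spanned the whole range (log2 fold change -0.20 ± 0.18 SE, edgeR adjusted p = 0.506). It was -0.44 without T6 (edgeR adjusted p = 0.0758) and -0.085 without T7 (adjusted p = 0.832). Scg3 encodes secretogranin III, which binds cholesterol-rich granule membrane and holds chromogranin A there. It had 320, 350, 313 and 345 CPM in Rb1/Trp53/Crebbp T5 to T8, inside the 260 to 365 CPM of Rb1/Trp53 libraries (median 326). Its log2 fold change was 0.09 ± 0.11 SE (edgeR adjusted p = 0.629), and between 0.047 and 0.14 with each library left out.

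Some cell markers also differed between the genotypes in the Pomc-high libraries, and their part in these results was not tested. Over all genes in this set, 8.42% were called, 3.15% as higher and 5.26% as lower. The 6 Pomc-cell markers, of which Pcsk2 fell and 0 rose, summed to 97359 to 235204 CPM in Rb1/Trp53/Crebbp and 216113 to 326928 CPM in Rb1/Trp53 libraries. Pomc and Pax7 both had log2 fold changes of -0.50 that did not pass (edgeR adjusted p = 0.194 and 0.0603), and Tbx19 had 0.08 (adjusted p = 0.685). Of 6 endothelial genes, 2 fell (Kdr and Ptprb), and their summed level was 16.2 to 42.0 CPM in Rb1/Trp53/Crebbp and 43.2 to 69.4 CPM in Rb1/Trp53 libraries. Of 6 macrophage genes 1 fell, with sums of 17.6 to 145 and 69.7 to 202 CPM. Of 5 neuroendocrine cell markers other than granins (Syp, Syt1, Ncam1, Ddc and Uchl1), Uchl1 rose and 0 fell. Their sums were 1237 to 1672 CPM in Rb1/Trp53/Crebbp and 1111 to 1195 CPM in Rb1/Trp53 libraries. Of 5 tested genes of other anterior lobe cells, 0 were called by edgeR, DESeq2 or limma-voom, and 0 had an unadjusted p under 0.05. All 7 listed genes of these cells summed to 48.2 to 2344 CPM in Rb1/Trp53/Crebbp and 11.3 to 14290 CPM in Rb1/Trp53 libraries. Astroglial genes (0 of 3 tested called by these tools, 1 at an unadjusted p under 0.05) summed, over all 5 listed, to 6.28 to 343 and 5.24 to 48.6 CPM. The highest astroglial sum was that of Rb1/Trp53/Crebbp T8, which also had the lowest Pomc of the Pomc-high libraries, at 94106 CPM. Without T8, Chgb (-0.67, edgeR adjusted p = 0.0142) and Vgf (-0.67, adjusted p = 0.0228) were called. Leaving out 1 library that differs in several ways does not test the part of any cell type.

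Within the Calca-high libraries, Chga, Chgb, Scg2 and Scg3 fell in the Rb1/Trp53/Crebbp tumours, and Vgf did not pass. Calls were frequent in this set: of 14797 genes, 36.2% were called, 19.1% as higher and 17.1% as lower. The median log2 fold change was -0.91 over the 5 granins and -0.02 over all genes. All 4 called genes were lower in each Rb1/Trp53/Crebbp library than in any Rb1/Trp53 library, as were 22.6% of all genes tested. In 21.8% of genes all 4 were higher, so 44.4% had genotypes that did not overlap.

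Scg2 had 4541, 8682, 4538 and 5140 CPM in Rb1/Trp53/Crebbp T1 to T4, against 13565, 11892 and 10976 CPM in Rb1/Trp53 T1, T3 and T4. T2 stood above the other 3 Rb1/Trp53/Crebbp libraries and still below the Rb1/Trp53 range. The log2 fold change was -1.07 ± 0.25 SE, or 52.3% lower (edgeR adjusted p = 0.0140).

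Chga had 5461, 5863, 3149 and 5316 CPM in Rb1/Trp53/Crebbp T1 to T4, against 9984, 11121 and 8024 CPM in Rb1/Trp53 T1, T3 and T4. T3 of the Rb1/Trp53/Crebbp group was the lowest of all 17 libraries. The log2 fold change was -0.95 ± 0.24 SE (edgeR adjusted p = 0.0162), and without Rb1/Trp53 T3 it was -0.84 and no longer past the threshold (adjusted p = 0.0594).

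Scg3 had 367, 364, 335 and 529 CPM in Rb1/Trp53/Crebbp T1 to T4, against 833, 737 and 702 CPM in Rb1/Trp53 T1, T3 and T4. T4 at 529 CPM stood above the other 3 Rb1/Trp53/Crebbp libraries and below the Rb1/Trp53 range. The log2 fold change was -0.91 ± 0.17 SE (edgeR adjusted p = 0.00525). Chgb had 1615, 1785, 1359 and 1958 CPM in Rb1/Trp53/Crebbp T1 to T4, against 2558, 2849 and 2579 CPM in Rb1/Trp53 T1, T3 and T4. It was 36.1% lower (log2 fold change -0.65 ± 0.15 SE, edgeR adjusted p = 0.0114), close to its difference in the Pomc-high libraries.

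Vgf was low and uneven in this set. It had 24.1, 30.7, 79.4 and 41.1 CPM in Rb1/Trp53/Crebbp T1 to T4, against 9.67, 32.7 and 39.2 CPM in Rb1/Trp53 T1, T3 and T4. The groups overlapped: the highest value was that of Rb1/Trp53/Crebbp T3 and the lowest that of Rb1/Trp53 T1. The log2 fold change was 0.71 ± 0.56 SE (edgeR adjusted p = 0.352). It was 0.24 without Rb1/Trp53/Crebbp T3, 0.31 without Rb1/Trp53 T1 and 1.06 without Rb1/Trp53 T4, none past the threshold.

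**Figure D2:**
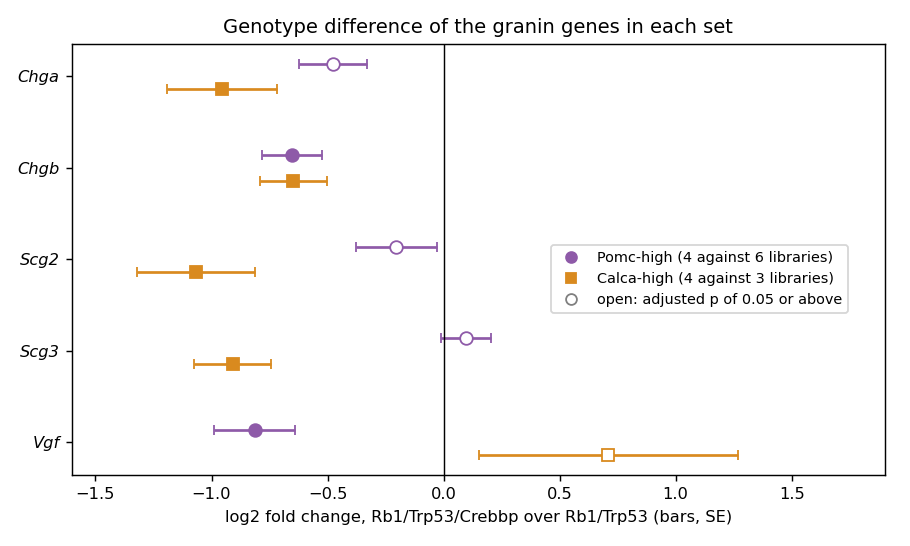
Log2 fold change of each granin gene, Rb1/Trp53/Crebbp over Rb1/Trp53, with its SE, in Pomc-high (circles) and Calca-high libraries (squares); open symbols did not pass an adjusted p of 0.05. Chgb has the same value of -0.65 in both sets, while Scg3 stands at 0.09 and -0.91, and Vgf at -0.81 and 0.71.

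Several other measures separated the same Calca-high libraries, and their part in the granin results was not tested. Over all genes in this set, 36.2% were called, 19.1% as higher and 17.1% as lower, so a few calls in a short marker list were frequent. The total on genes was 8328297 to 15490074 in Rb1/Trp53/Crebbp and 20361712 to 28140755 in Rb1/Trp53 libraries. Calca itself fell (-1.41 ± 0.30 SE, edgeR adjusted p = 0.00868), with 34525 to 67624 CPM in Rb1/Trp53/Crebbp, against 118242 to 177527 CPM in Rb1/Trp53 libraries, as did 5 of 6 C cell genes counting Calca. Of 5 thyroid follicle genes 4 fell, with sums of 931 to 1301 CPM in Rb1/Trp53/Crebbp and 2130 to 16968 CPM in Rb1/Trp53 libraries, and of 4 fat cell genes 4 fell, with sums of 6.23 to 10.2 and 28.6 to 141 CPM. Lung epithelial genes (3 of 5 fell and 1 rose) summed to 66.5 to 99.5 and 200.9 to 354 CPM. Endothelial genes (3 of 6 fell) summed to 32.7 to 47.7 and 57.6 to 75.4 CPM, macrophage genes (2 of 6 fell) to 48.8 to 115 and 131 to 174 CPM, and fibroblast genes (0 of 6 called by edgeR or limma-voom, 2 by DESeq2, 2 at an unadjusted p under 0.05) to 170 to 612 and 544 to 840 CPM. Astroglial genes (2 of 3 tested fell) summed, over all 5 listed, to 3.20 to 6.41 and 12.6 to 28.4 CPM. The 5 neuroendocrine cell markers other than granins, of which Ncam1 rose and 0 fell, summed to 1121 to 1430 CPM in Rb1/Trp53/Crebbp and 827 to 1543 CPM in Rb1/Trp53 libraries.

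The genotype difference was compared directly between the sets with an interaction term, given as the log2 fold change in Pomc-high minus that in Calca-high libraries. Of 14338 genes, 24.7% had an interaction past the threshold, 10.9% as higher and 13.9% as lower. For Scg3 the interaction was 0.9999 ± 0.19 SE (edgeR adjusted p = 0.00221), with log2 fold changes of 0.09 in Pomc-high and -0.91 in Calca-high libraries. For Scg2 it was 0.86 ± 0.31 SE (edgeR adjusted p = 0.0490), a call at the edge of the threshold. It kept this call in 5 of the 17 fits that left out 1 library, those without Rb1/Trp53 T8 or without Rb1/Trp53/Crebbp T2, T5, T7 or T8. Without any one of the other 12 it lay between 0.63 and 0.93 (edgeR adjusted p = 0.0550 to 0.102). Vgf had an interaction of -1.53 ± 0.55 SE that missed the threshold (edgeR adjusted p = 0.0521). It was past it without Rb1/Trp53 T4 (-1.88, adjusted p = 0.0331), without Rb1/Trp53/Crebbp T1 (-1.67, adjusted p = 0.0349) or T6 (-1.68, adjusted p = 0.0439), and with DESeq2 (-1.52, adjusted p = 0.0275) and limma-voom (-1.65, adjusted p = 0.0355). For Chga (0.48 ± 0.26 SE, edgeR adjusted p = 0.188) and Chgb (-0.01 ± 0.19 SE, edgeR adjusted p = 0.980) no difference between the sets was detected.

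With the set as a term over all 17 libraries, Chga, Chgb and Scg2 fell, where 18.0% of 14338 genes were called, 8.22% as higher and 9.74% as lower. Chgb had the smallest adjusted p of the 5, at -0.67 ± 0.10 SE (edgeR adjusted p = 3.36e-04), with adjusted p-values of 2.99e-04 to 0.00112 when each library was left out in turn. Chga was at -0.69 ± 0.14 SE (edgeR adjusted p = 0.00400). Scg2 was at -0.58 ± 0.18 SE (edgeR adjusted p = 0.0361). It was no longer called without Rb1/Trp53 T1 (-0.50), T3 (-0.54), T4 (-0.56) or T8 (-0.57), or without Rb1/Trp53/Crebbp T1 (-0.50), T3 (-0.50), T4 (-0.52) or T7 (-0.55), with edgeR adjusted p-values of 0.0548 to 0.0825. Scg3 (-0.34 ± 0.15 SE, edgeR adjusted p = 0.122) and Vgf (-0.22 ± 0.33 SE, edgeR adjusted p = 0.681, and -0.44 to -0.048 with each library left out) did not pass. Without that term, the contrast of the labels over all 17 libraries gave a call for Chga alone among the granins (-0.67 ± 0.16 SE, edgeR adjusted p = 0.0261), where 3.86% of genes were called, 1.81% as higher and 2.05% as lower. That call was lost without Rb1/Trp53/Crebbp T3 (-0.59, adjusted p = 0.0504) or T4 (-0.68, adjusted p = 0.0521).

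The 5 genes varied together to a different degree in each set. Correlations are of log2 CPM across libraries, which share the genotype split and the scaling, and are given as a description. In the 7 Calca-high libraries Chga, Chgb, Scg2 and Scg3 went together, with Pearson r of 0.81 to 0.95 for the 6 pairs. After each genotype's mean was subtracted, r ran from 0.03 (Scg2 with Scg3) to 0.81 (Chga with Chgb). Vgf went the other way from each of them, with r of -0.67 to -0.50 before the 2 libraries farthest from its median were left out and of 0.19 to 0.65 after. In the 10 Pomc-high libraries Chga and Vgf were closest (r = 0.83, Spearman rho = 0.78, and r = 0.50 with genotype means subtracted), and Chga with Chgb had r = 0.66, which was -0.13 with genotype means subtracted. Scg3 had r of -0.36 to 0.27 with the other members there. Pomc went with Vgf (r = 0.83) and Chga (r = 0.80) in the Pomc-high libraries, and less with Chgb (0.51), Scg2 (0.20) and Scg3 (-0.16). Calca went with Chgb (r = 0.96), Chga (0.94), Scg3 (0.90) and Scg2 (0.79) in the Calca-high libraries, and not with Vgf (-0.46). With genotype means subtracted, Pomc had r of 0.73 with Vgf, 0.65 with Chga and -0.10 with Chgb. Calca then had 0.80 with Chgb, 0.73 with Chga, 0.41 with Scg3 and -0.02 with Scg2.

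**Figure D3:**
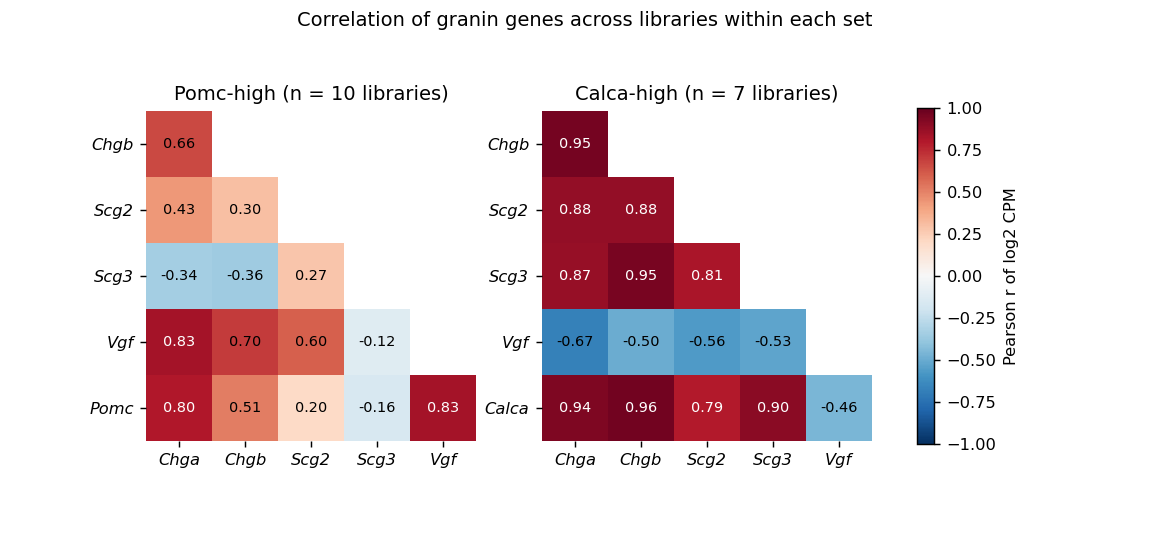
Pearson r of log2 CPM between granin genes, and with Pomc or Calca, across the 10 Pomc-high (left) and 7 Calca-high libraries (right). In the Calca-high set the 4 genes other than Vgf have r of 0.81 or more with each other, while in the Pomc-high set Scg3 stands apart from Chga (-0.34) and Chgb (-0.36).

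The genes whose pattern was most like each granin in both sets were picked by the smaller of the 2 within-set Pearson r among 11025 genes that averaged 5 CPM or more in both sets. For Chga they were Sgsm3 (r = 0.93 in 10 Pomc-high and 0.93 in 7 Calca-high libraries), Procr (0.91 and 0.93) and P4hb (0.91 and 0.96). For Chgb they were Lgals3bp (0.93 and 0.94), Rras (0.91 and 0.95) and Ifi30 (0.91 and 0.93). For Scg2 they were Ube2d3 (0.84 and 0.97), Fam18b (0.83 and 0.88) and Sept2 (0.83 and 0.85). Scg3 had looser matches, with Atp6v1c1 (0.75 and 0.83), Alg14 (0.72 and 0.98) and Commd1 (0.71 and 0.71). For Vgf they were Mars (0.87 and 0.93), Inpp5f (0.86 and 0.86) and Tsr1 (0.86 and 0.92), of which Inpp5f turned to -0.43 in the Calca-high libraries without the 2 farthest from its median. With so many genes and 7 to 10 libraries, high values of r are common, and the same libraries serve every gene.

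The list of prohormone processing enzymes, which is not limited to those inside the granule, included genes that fell with the granins. Of 9 prohormone processing enzymes, 2 fell and 0 rose in Pomc-high Rb1/Trp53/Crebbp tumours, and 3 fell and 2 rose in Calca-high ones. Over all genes, 5.26% were called lower and 3.15% higher in Pomc-high libraries, and 17.1% lower and 19.1% higher in Calca-high libraries. The median log2 fold change was -0.40 (0.01 over all genes) in Pomc-high and -0.06 (-0.02 over all genes) in Calca-high libraries. Pcsk2, the convertase that cuts late in the granule, fell in both sets (-0.79 ± 0.19 SE, edgeR adjusted p = 0.0216, in Pomc-high, and -1.62 ± 0.17 SE, adjusted p = 0.00111, in Calca-high libraries). Its fall was larger in the Calca-high libraries (interaction 0.83 ± 0.26 SE, edgeR adjusted p = 0.0315). Pam, which amidates peptide ends, fell as well (-0.66 ± 0.10 SE, edgeR adjusted p = 0.00229, and -1.05 ± 0.16 SE, adjusted p = 0.00284), and its interaction did not pass (adjusted p = 0.132). Pcsk1, the convertase that cuts first, was called in the Calca-high libraries only (-0.98 ± 0.16 SE, edgeR adjusted p = 0.00322), against -0.61 ± 0.19 SE in Pomc-high ones, and the interaction did not pass (adjusted p = 0.329). Qpct, which forms pyroglutamate ends, rose in the Calca-high libraries (1.88 ± 0.40 SE, edgeR adjusted p = 0.0100).

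Scg5 and Pcsk1n, which encode the granin-like proteins 7B2 and proSAAS, inhibitors of Pcsk2 and Pcsk1, were positive in one set and negative in the other. In Pomc-high libraries their log2 fold changes were 0.46 ± 0.14 SE and 0.70 ± 0.20 SE (edgeR adjusted p = 0.0679 and 0.0531). In Calca-high libraries they were -0.36 ± 0.23 SE and -0.56 ± 0.27 SE (edgeR adjusted p = 0.241 and 0.145). Neither passed within a set by edgeR, although both were under 0.05 unadjusted and were called by DESeq2 in Pomc-high libraries. Limma-voom called neither in either set, and DESeq2 neither in Calca-high libraries, where 0 were under 0.05 unadjusted. Both had an interaction past the threshold, at 0.82 ± 0.27 SE for Scg5 and 1.26 ± 0.36 SE for Pcsk1n (edgeR adjusted p = 0.0337 and 0.0199).

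Of 16 genes of granule biogenesis and membrane, 1 fell in Pomc-high libraries, where 8.42% of all genes were called, and this was Tmem163, a zinc transporter of vesicle membranes (-0.57 ± 0.11 SE, edgeR adjusted p = 0.00683). In Calca-high libraries, where 36.2% of all genes were called, 4 fell and 1 rose, among them Slc18a1, the vesicular monoamine transporter of endocrine cells (-1.75 ± 0.33 SE, edgeR adjusted p = 0.00581), and Ica1 (-0.38 ± 0.11 SE, edgeR adjusted p = 0.0254). Hid1, needed for granule maturation and listed as C630004H02Rik, fell by 0.36 ± 0.11 SE on the log2 scale, and Ccdc186, listed as A630007B06Rik, rose by 1.49 ± 0.21 SE. The medians were -0.02 in Pomc-high and -0.03 in Calca-high libraries.

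Of 27 genes of docking and release, 2 rose and 3 fell in Pomc-high libraries (median 0.18), and 6 rose and 3 fell in Calca-high ones (median 0.07). Over all genes 8.42% were called in Pomc-high and 36.2% in Calca-high libraries. The Calca-high count was near that share. The Pomc-high count lay above it but rests on few genes (3 called by limma-voom and 8 by DESeq2), and the list was not tested as a set. Syt7, a calcium sensor of granule release, fell in both sets (-0.70 ± 0.09 SE and -0.35 ± 0.10 SE, edgeR adjusted p = 5.76e-04 and 0.0297). Cplx1, which clamps the release machinery, rose in both (1.83 ± 0.49 SE and 3.38 ± 0.50 SE, edgeR adjusted p = 0.0446 and 0.00252), from low levels. In Pomc-high libraries its mean was 19.5 CPM in Rb1/Trp53/Crebbp, with an SD of 20.3, so uneven, and 5.64 CPM (SD 1.09) in Rb1/Trp53 tumours. In Calca-high libraries the means were 9.05 CPM (SD 4.08) and 0.89 CPM (SD 0.50). Rab27b, a granule GTPase, fell in Pomc-high (-1.16 ± 0.29 SE, edgeR adjusted p = 0.0335) and rose in Calca-high libraries (1.31 ± 0.41 SE, adjusted p = 0.0402), with an interaction of -2.47 ± 0.52 SE (adjusted p = 0.00406). Unc13a, a vesicle priming factor, fell (-0.84 ± 0.13 SE, edgeR adjusted p = 0.00254) and Rab3b rose (0.41 ± 0.11 SE, adjusted p = 0.0335) in Pomc-high libraries. Sytl4 fell (-1.10 ± 0.19 SE, edgeR adjusted p = 0.00475), and Sytl5 rose (1.65 ± 0.33 SE, adjusted p = 0.00755), in Calca-high libraries.

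**Figure D4:**
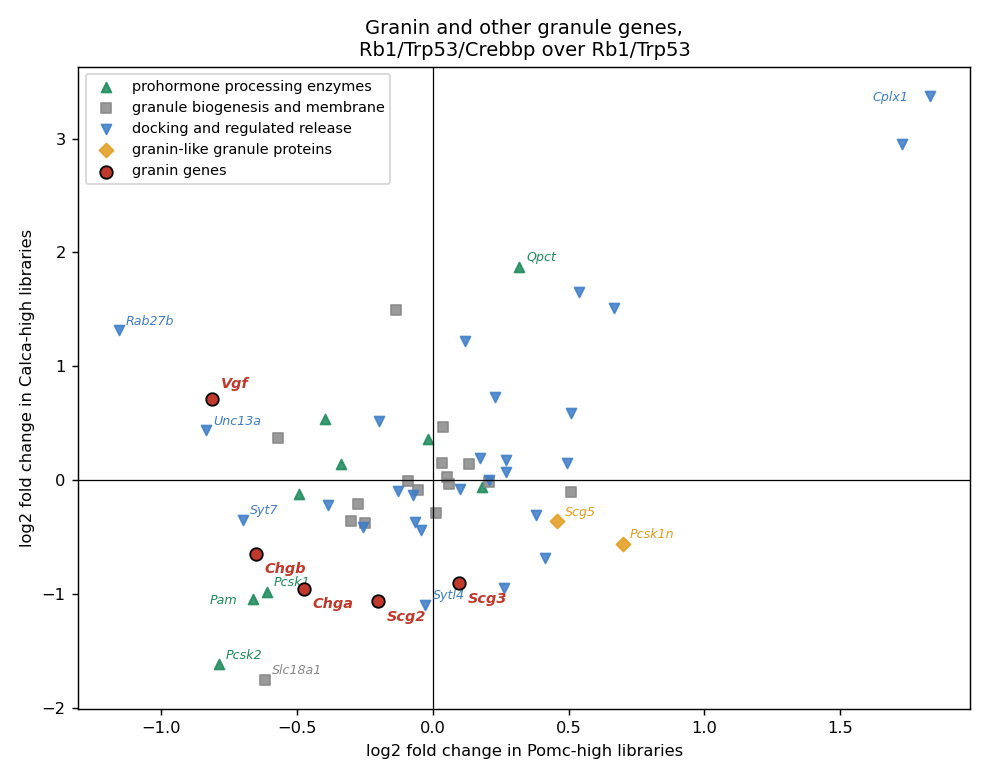
Log2 fold change, Rb1/Trp53/Crebbp over Rb1/Trp53, in Pomc-high (horizontal) and Calca-high libraries (vertical) for the granins (red circles) and the processing, granule and release genes by list. Chga, Chgb and Scg2 lie in the lower left with Pcsk1, Pcsk2 and Pam, Vgf lies in the upper left with Unc13a and Rab27b, and Scg5 and Pcsk1n lie in the lower right.

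Of 10 tested transcription factors and coactivators known to act on granin genes, 0 passed in Pomc-high libraries by edgeR and 0 by DESeq2 or limma-voom, with 0 at an unadjusted p under 0.05, where the median log2 fold change was -0.09. In Calca-high libraries 2 rose and 2 fell (median 0.07), a share near the 36.2% of all genes called there. Ep300, which encodes p300, the close relative of CBP, rose (0.78 ± 0.09 SE, edgeR adjusted p = 0.00118), with an interaction of -0.67 ± 0.20 SE (adjusted p = 0.0225), and so did the CREB coactivator gene Crtc3 (0.37 ± 0.10 SE, adjusted p = 0.0230). Insm1, a zinc-finger factor of neuroendocrine cells, fell (-0.61 ± 0.20 SE, edgeR adjusted p = 0.0419). Creb1 itself had log2 fold changes of 0.19 ± 0.09 SE in Pomc-high and 0.18 ± 0.13 SE in Calca-high libraries, neither past the threshold (edgeR adjusted p = 0.212 and 0.287).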

How the data were processed

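Oligo-dT selected mRNA of TRIzol extracts went into NEBNext Ultra libraries, per the labels. The submitters' processing notes name bcl2fastq 1.8.2, TopHat2 2.0.12, HTSeq 0.6.1 and build mm9; annotation and strand setting were not stated in the labels used here. The authors deposited raw counts per gene symbol; 5 rows that name no gene were left out, and genes held 64.5% to 78.3% of each table. Counts were fitted in R 4.3.3 with edgeR 4.0.16 (filterByExpr, TMM, robust quasi-likelihood F test, Benjamini-Hochberg adjustment over all genes). SE is the absolute log2 fold change over the square root of F. CPM values use TMM-scaled totals, and log2 CPM a prior count of 2. No 2 tables held the same library (chi-square per degree of freedom of 8.30 or higher in 64 pairs within a genotype). Members, sets and lists were chosen with earlier results of these data known. Named are the granins, the genes that split or define the tumours, up to 4 called genes per list and set, and the 3 genes most like each granin; Scg5, Pcsk1n, Creb1, Rab27b and Cplx1 in both sets were named after their values were seen. Some called genes of these lists are counted but not reported here by name. The fits were tested on simulated data with changes put into randomly chosen genes. Of 2-fold changes, 60% were recovered in the Pomc-high fit, 22% in the Calca-high fit and 37% for the interaction. The simulated spread was taken without a genotype term and so also held the real genotype differences. Only 200 genes were changed, drawn from all levels of expression. These shares therefore do not give the chance of a call for the granins in the real fits. A gene that did not pass may still differ. Other settings were DESeq2 1.42.0, limma-voom (limma 3.58.1), other scalings and filters, the tumour number as a block, and each library left out. Figures were drawn with matplotlib 3.10.9.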

Additional observations from a re-analysis of the deposited data

Results flagged for a closer look

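Among the 4 Calca-high Rb1/Trp53/Crebbp libraries, T3 stood far below the others for Chga, at 3149 CPM. Among all 8 Rb1/Trp53/Crebbp libraries, T4 stood far above the others for Scg3, at 529 CPM. These are 2 of 25 groups looked at, and chance gives about 1 in 20.

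For Scg2 the genotype log2 fold change in Pomc-high minus that in Calca-high libraries was 0.86 (adjusted p = 0.0490 by edgeR's interaction test). For Scg3 it was 0.9999 (adjusted p = 0.00221 by the same test).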

How the results depend on the processing

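Over the 5 granins, 610 alternative values were set against the main ones: 31 lost a call, 12 gained one and 14 changed sign. All 14 changes of sign were those of the Chgb interaction, which lay near 0. The causes were not tested. The other 553 counted as kept, which for a genotype fit means the same direction and side of the threshold. Differences between the sets have no p-value and so could not lose a call. They all counted as kept, with moves smaller than the spread within groups. DESeq2 called 1917 genes in Pomc-high and 1397 over all libraries (edgeR 1179 and 554). It also called Chga in Pomc-high libraries (-0.47, adjusted p = 0.00578) and the Vgf interaction (-1.52), as did limma-voom (-1.65). Without a low-count filter the Scg2 interaction was 0.86 (edgeR adjusted p = 0.0577). The Chgb interaction, near 0, turned positive with DESeq2 size factors (0.000511), without Pomc and Calca (0.040), with DESeq2 (0.000541) and with limma-voom (0.00967).

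No pairing of samples by tumour number was seen, although 7 pairs are too few to exclude one. In 7 same-numbered pairs within a set, deviations from group means correlated at -0.16 to 0.19, 1 of 7 above 0.1. Of 7 Rb1/Trp53/Crebbp libraries, 2 correlated best with their own number. With the number as a replicate block, genes called were 354 in Pomc-high, 2700 in Calca-high, 627 with the set as a term and 1311 for the interaction, against 1179, 5355, 2575 and 3543 without. With this block Vgf in Pomc-high was -0.90, Chga and Chgb in Calca-high were -1.07 and -0.69, the Scg2 interaction was 1.09, Chga and Scg2 with the set as a term were -0.78 and -0.74 (edgeR adjusted p = 0.0542 and 0.103), and Chga over all libraries was -0.69 (adjusted p = 0.0755), none past the threshold, while the Vgf interaction (-1.79) and Chgb over all libraries (-0.64) were called.

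With each library left out in turn, genes called ran from 752 (without Rb1/Trp53/Crebbp T7) to 1214 in Pomc-high and from 285 to 1010 over all libraries. Chga ran from -0.58 to -0.37 in Pomc-high and from -1.08 to -0.80 in Calca-high libraries. The interaction ran from -0.064 to 0.12 for Chgb, 0.63 to 1.18 for Scg2 and -1.88 to -1.03 for Vgf.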
